A study of Mus musculus with 6 samples.

Results

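Tight junction and desmosome genes were examined in bulk RNAseq of tuft-like and non-tuft-like medullary thymic epithelial cells (mTEC) of the mouse. Members were the protein-coding genes named as a numbered claudin, a ZO scaffold, a desmoglein, a desmocollin or a plakophilin, together with Ocln, Marveld2, Marveld3, Dsp and Jup. The rule used gene names only and no measured value, although it was set with earlier results of these data known. It took 44 of the 52636 gene rows of the count table, 29 of them tight junction and 15 desmosome genes. Cells were sorted from thymi of C57BL/6 mice at 6 weeks of age, with no genotype or treatment that set the populations apart. The labels give all sorted cells as UEA+ MHCIIlo and lacking CD80, Sca1 and CD63. Tuft-like mTEC were in addition CD117+ CD66a+ and non-tuft-like mTEC were CD117- CD66a-, with 3 libraries of each population. The non-tuft-like gate is set by the absence of markers, so it can hold cells of more than a single type. Neither the labels nor the methods say whether the 3 libraries of a population came from separate mice, so the p-values below measure the spread between these libraries, which may be technical.

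Epithelial cells are joined to their neighbours by several kinds of junction. At the tight junction, claudins form the strands that seal the space between cells or leave it selectively open to ions, occludin and the MARVEL-domain proteins sit in the same strands, and ZO proteins tie them to actin. At the desmosome, desmogleins and desmocollins bind across the gap, plakoglobin and the plakophilins bind their tails, and desmoplakin anchors the plaque to keratin filaments. Dsg1 and Dsc1 proteins are best known from the upper layers of epidermis, Dsg3 and Dsc3 from its lower layers, and Dsg2 and Dsc2 from simple epithelia. Tuft cells are chemosensory cells of simple epithelia, and tuft-like mTEC are their counterpart in the thymic medulla.

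The depth on genes was 20097617 to 48369825 reads a library. Levels are CPM, which are counts after TMM normalization put on the same total in each library, or CPM per kb of exon where levels of different genes are compared, and changes are log2 fold changes of tuft-like over non-tuft-like with their approximate standard error (SE). A difference was called at a false discovery rate (FDR) under 0.05 in edgeR's quasi-likelihood test over all tested genes. Kit, which encodes CD117, stood at 141 to 185 CPM in the non-tuft-like and at 301 to 451 CPM in the tuft-like libraries. The libraries did not overlap, but Kit was not called (log2 fold change 1.24, SE 0.29, edgeR FDR 0.0678). Ceacam1, which encodes CD66a, stood at 6.58 to 18.1 CPM and at 174 to 273 CPM in the same order. Of 14 tuft cell markers, 14 were called higher in tuft-like mTEC. Reads in no annotated gene were 34.4% to 52.5% of the total in non-tuft-like libraries and 61.6%, 47.6% and 19.7% in tuft-like libraries 1, 2 and 3, so the tuft-like libraries differed most in this respect. Many member values were highest in tuft-like library 3, and values without it are given for some of the members where it set the direction or much of the size of a difference. In fits without it the median log2 fold change of all genes was shifted by 0.316.

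Among 40 members tested, 5 were lower in tuft-like mTEC and 0 were higher, and all 5 belong to the desmosome. They were the desmosomal cadherins Dsg1a, Dsg1b, Dsc1 and Dsc3 and the plaque protein Pkp3. The share called among the members was 12.5%, against 2.11% of the 32496 genes tested across the transcriptome (0.951% lower and 1.16% higher). These shares are not matched for level, as 28 of the 40 members but only 11632 of all tested genes had a mean of at least 10 CPM. In a fit of such genes alone, 10 of 28 members and 1547 of 11632 genes were called. Of the 15 desmosome members, 5 were called, and of the 25 tested tight junction members, 0 were called by edgeR. At an unadjusted p under 0.05, 3 tight junction members were lower and 2 higher, DESeq2 called 2 of them, Cldn1 and Cldn23, both lower, and limma voom called Cldn1. The median log2 fold change was -0.84 over the 15 desmosome members and 0.06 over the 25 tight junction members, beside 0.02 over all tested genes. Libraries of the populations did not overlap for 15 of 40 members with lower values in tuft-like mTEC (37.5%) and for 3 with higher values, against 8.85% and 7.18% of all tested genes. The shares without overlap were not matched for level either. In sorted bulk samples, fewer cells of a type and less RNA per cell cannot be told apart.

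**Figure D1:**
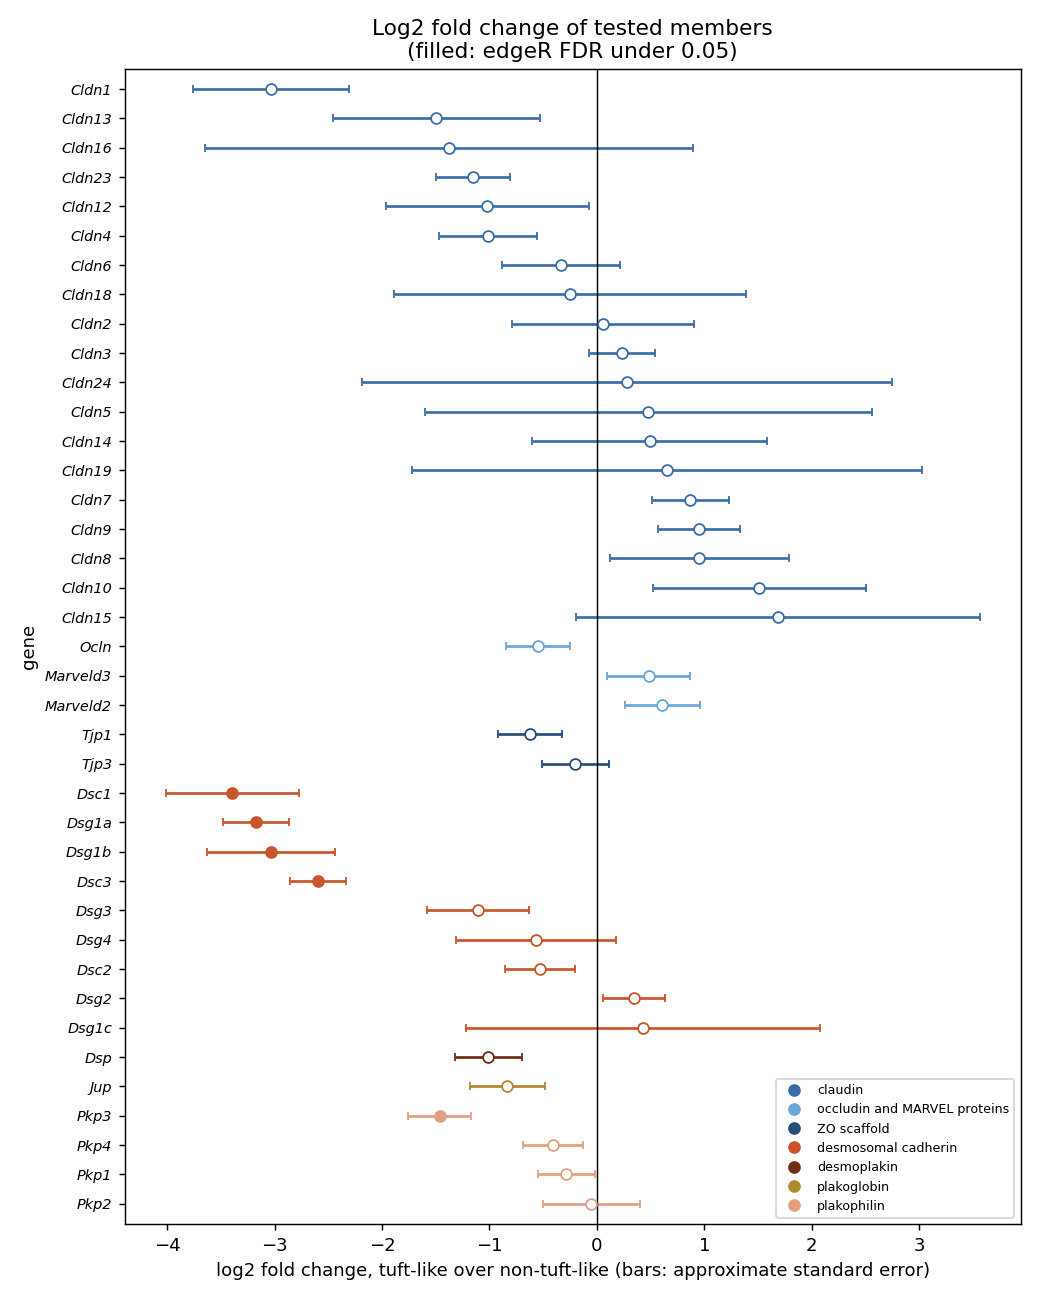
Log2 fold change of tuft-like over non-tuft-like mTEC (x axis, bars are the approximate SE) for 39 tested members (y axis), coloured by family. The 5 filled points, with an edgeR FDR under 0.05, are all desmosome genes with values from -3.40 to -1.47, whereas the claudins spread from -3.03 to 1.69 with none called.

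The 9 desmosomal cadherin genes all lie on chromosome 18 between positions 19960930 and 20604521 of mm10, and 4 of them were lower in tuft-like mTEC. Dsg1a, a desmoglein of differentiating keratinocytes, stood at 133, 212 and 215 CPM in non-tuft-like libraries 1 to 3 and at 18.7, 20.5 and 22.8 CPM in tuft-like libraries 1 to 3 (log2 fold change -3.18, SE 0.31, edgeR FDR 0.000689). The lowest non-tuft-like library was far above the highest tuft-like library, and the tuft-like mean was 11.1% of the non-tuft-like mean. Dsc3, a desmocollin of the basal epidermal layers, stood at 170, 197 and 182 CPM in non-tuft-like and at 32.5, 29.8 and 28.4 CPM in tuft-like mTEC (log2 fold change -2.60, SE 0.26, edgeR FDR 0.000839). Its libraries lay close together within each population and did not overlap between them. Dsc1, the desmocollin of the outer epidermis, stood at 70.9, 104 and 63.2 CPM in non-tuft-like and at 8.93, 1.70 and 12.0 CPM in tuft-like mTEC (log2 fold change -3.40, SE 0.62, edgeR FDR 0.0186). It was the most reduced of the called members by its estimate, with tuft-like library 2 (58 reads) the lowest. Dsg1b, a close copy of Dsg1a, stood at 32.0, 48.0 and 36.3 CPM in non-tuft-like and at 1.45, 6.23 and 6.49 CPM in tuft-like mTEC (log2 fold change -3.03, SE 0.59, edgeR FDR 0.0276), again with no overlap.

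Dsg1a, Dsc3 and Dsc1 were called in all 14 alternative analyses, including each that left out a library. Dsg1b was not called without non-tuft-like library 2 (edgeR FDR 0.124), non-tuft-like library 3 (0.0528) or tuft-like library 2 (0.0577). The 3 Dsg1 genes are near-identical over long stretches. Of the distinct 50-base stretches of their exons, 35% of those of Dsg1a, 48.9% of those of Dsg1b and 29.6% of those of Dsg1c also occur in another gene, mainly in each other, so reads may be divided among them and their separate levels are uncertain. None of the 50-base stretches of Dsc1, Dsc3 or Pkp3 was shared.

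The remaining 5 desmosomal cadherins did not pass the test. Dsg2, the desmoglein of simple epithelia and heart, stood at 252, 307 and 237 CPM in non-tuft-like and at 276, 322 and 414 CPM in tuft-like mTEC (log2 fold change 0.34, SE 0.29, edgeR FDR 1). The ranges overlapped, with the highest value in tuft-like library 3, and the log2 fold change was 0.13 without it. Dsc2, its desmocollin partner in simple epithelia, stood at 175, 140 and 121 CPM in non-tuft-like and at 67.5, 94.4 and 140 CPM in tuft-like mTEC (log2 fold change -0.53, SE 0.32, edgeR FDR 0.895). Here too the ranges overlapped, through tuft-like library 3, without which the log2 fold change was -0.88 (edgeR FDR 0.220). Dsg3, a desmoglein of basal keratinocytes, stood at 23.9, 47.5 and 17.5 CPM in non-tuft-like and at 11.5, 16.4 and 13.4 CPM in tuft-like mTEC (log2 fold change -1.11, SE 0.47, edgeR FDR 0.498). All tuft-like libraries were below all non-tuft-like libraries, but the spread among the latter was wide. Dsg4 and Dsg1c were low, with at most 13.8 and 5.25 CPM in any library.

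In order along chromosome 18, the genes are Dsc3, Dsc2, Dsc1, Dsg1c, Dsg1a, Dsg1b, Dsg4, Dsg3 and Dsg2. The called genes were not a single run along the cluster. Dsc2, at chr18:20030633-20059554, lies between Dsc3 (chr18:19960930-20002351) and Dsc1 (chr18:20084184-20114871), both lower in tuft-like mTEC. Dsg2 (chr18:20558074-20604521) is at the end of the cluster that is farther from Dsc3. Antisense exons of Gm16090 overlap 330 bases of Dsg2, and the strand setting of the counting is not given in the sources used here.

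**Figure D2:**
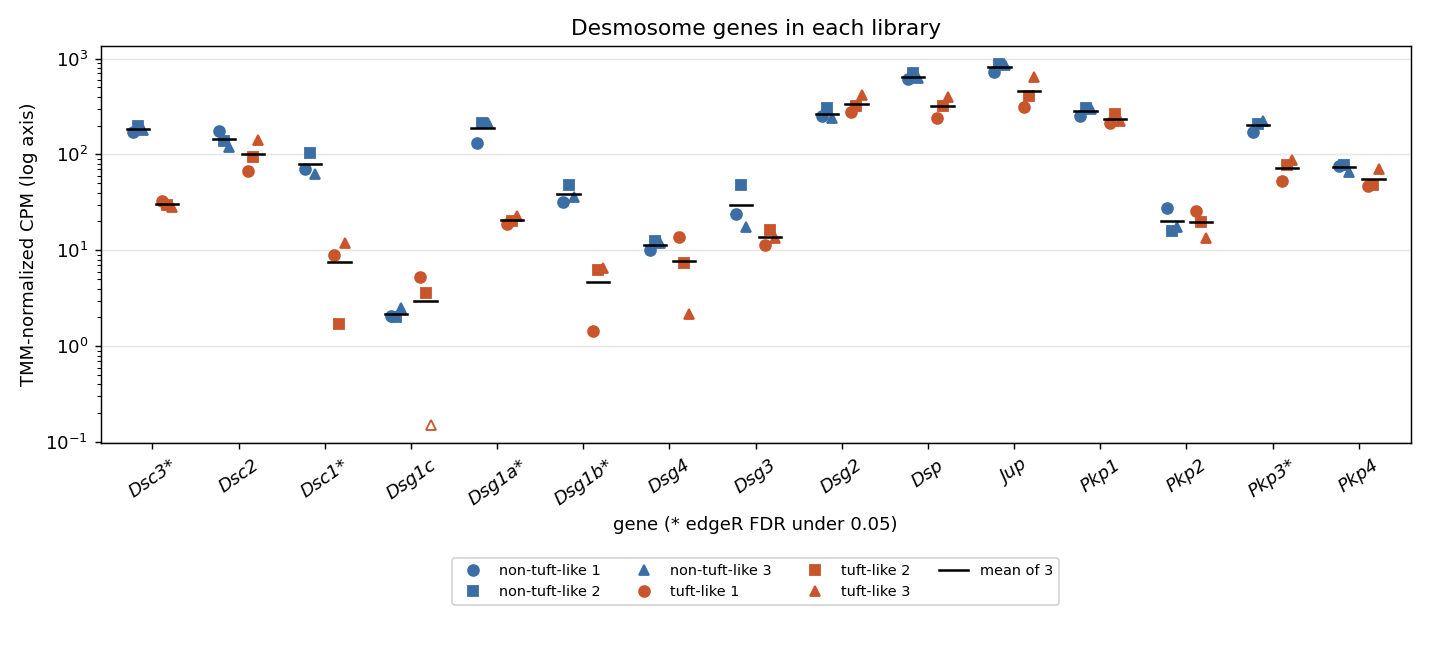
TMM-normalized CPM on a log axis of the 15 desmosome members, with the cadherins in their order along chromosome 18, in the 3 non-tuft-like (blue) and 3 tuft-like (orange) libraries; black lines are means of 3, and the open symbol is a library with 0 counts of Dsg1c, drawn near the bottom of the axis. The starred genes Dsc3, Dsc1, Dsg1a, Dsg1b and Pkp3 had an edgeR FDR under 0.05, and their tuft-like libraries all lie below their non-tuft-like libraries.

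On the plaque side, Pkp3, a plakophilin found across most epithelia, stood at 173, 206 and 224 CPM in non-tuft-like and at 52.9, 78.0 and 87.2 CPM in tuft-like mTEC (log2 fold change -1.47, SE 0.29, edgeR FDR 0.0290). The tuft-like mean was 36.2% of the non-tuft-like mean and the populations did not overlap. The call for Pkp3 was lost on leaving out any non-tuft-like library or tuft-like library 1 or 2, with an edgeR FDR between 0.0525 and 0.153. Pkp1, the plakophilin of stratified epithelia, stood at 252, 303 and 298 CPM in non-tuft-like and at 214, 263 and 224 CPM in tuft-like mTEC (log2 fold change -0.28, SE 0.27, edgeR FDR 1). Its ranges overlapped, as did those of Pkp2, which stood at 16.0 to 27.4 CPM and at 13.4 to 25.6 CPM in the 2 populations. Pkp4 stood at 66.1 to 77.3 CPM in non-tuft-like and at 47.1 to 69.7 CPM in tuft-like mTEC, with overlap through tuft-like library 3.

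Jup had the highest level per kb of the desmosome members, with means of 127 in non-tuft-like and 71.0 in tuft-like mTEC, and Dsp followed in non-tuft-like mTEC with 66.6. Dsp, which encodes the keratin anchor desmoplakin, stood at 608, 700 and 621 CPM in non-tuft-like and at 238, 323 and 396 CPM in tuft-like mTEC (log2 fold change -1.01, SE 0.31, edgeR FDR 0.186). The populations did not overlap, and the tuft-like mean was 49.7% of the non-tuft-like mean. Dsp was called in 6 of 14 alternatives, among them DESeq2 (adjusted p 0.00179), limma voom (0.0155) and edgeR without tuft-like library 3 (log2 fold change -1.23, FDR 0.0486). Jup, which encodes plakoglobin and is shared with adherens junctions, stood at 720, 877 and 849 CPM in non-tuft-like and at 314, 408 and 648 CPM in tuft-like mTEC (log2 fold change -0.84, SE 0.35, edgeR FDR 0.472). Its libraries did not overlap either, and it was called in 3 alternatives, with all 14 estimates below 0. Without tuft-like library 3 its log2 fold change was -1.21 (edgeR FDR 0.0513).

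The composition of the cadherins differed between the populations. On the per kb scale, the summed level of the 9 genes was 160 ± 18.2 in non-tuft-like and 76.7 ± 14.2 in tuft-like mTEC (SD, n = 3). Dsg2 made up 20.6%, 20.5% and 19.0% of that sum in non-tuft-like libraries 1 to 3 and 51.7%, 53.2% and 54.2% in tuft-like libraries 1 to 3. The share hardly varied within a population. It is no separate support for a rise of Dsg2, because the sum includes the 4 called genes. Dsg2 itself had means of 32.1 and 40.8 per kb, with overlap between the populations. Dsc2 made up 17.4 ± 4.42% and 24.3 ± 4.43%. Dsc3 made up 21.2 ± 1.06% and 7.52 ± 1.82%, and Dsg1a 20.5 ± 4.57% and 4.79 ± 0.399%. Ratios within a library do not depend on how libraries are scaled to each other. The level of Dsg2 per kb was 1.30, 0.995 and 0.760 times that of Dsg1a in non-tuft-like libraries and 10.1, 10.8 and 12.5 times in tuft-like libraries. For Dsc2 over Dsc3 the ratios were 1.05, 0.727 and 0.679 in non-tuft-like and 2.13, 3.25 and 5.05 in tuft-like libraries. Against the anchor Dsp, Dsg2 stood at 0.484, 0.512 and 0.447 in non-tuft-like and at 1.35, 1.16 and 1.22 in tuft-like libraries. For Pkp1 over Pkp3 they were 1.05, 1.06 and 0.960 against 2.91, 2.42 and 1.85. None of these 4 ratios overlapped between the populations, which is given as a description without a test. It is no separate support, because the denominators Dsg1a, Dsc3, Dsp and Pkp3 did not overlap by themselves.

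Marker sums of several other cell types were also lower in tuft-like mTEC. The 10 keratinocyte markers, which were chosen as a list of epidermal differentiation genes and share Grhl3 with the list of junction regulators, summed to 3383, 5187 and 5411 CPM in non-tuft-like and to 157, 538 and 1427 CPM in tuft-like mTEC, and 4 of 10 were called lower (Sbsn, Dmkn, Ivl and Skint4). The 8 mature mTEC markers summed to 14305 to 17950 CPM and to 2267 to 5018 CPM, with 6 of 8 lower, although both sorts were MHCIIlo and CD80-. Aire, in that list, stood at 235 to 341 CPM and at 18.8 to 23.4 CPM. The 7 intertypical TEC markers, which include the basal keratins Krt5 and Krt14, summed to 817 to 933 CPM and to 120 to 234 CPM, with 1 of them lower. No keratinocyte or mature mTEC marker was at 0 counts in any library. Of all tested genes, 0.951% were called lower. Lower estimates were not particular to these lists, as 7 of 7 cTEC and 8 of 9 enterocyte and hepatocyte markers had them too. Among fibroblast markers 0 of 7 did. The part of any of these cell types in the desmosome results was not tested.

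Of the 23 claudin genes, 19 were tested and 0 were called, with 11 estimates above 0 and 8 below. The leading claudins by level per kb were Cldn3, Cldn7, Cldn4, Cldn1 and Cldn23 in non-tuft-like mTEC and Cldn7, Cldn3, Cldn4, Cldn9 and Cldn23 in tuft-like mTEC. Cldn1, the claudin whose loss breaks the epidermal barrier, stood at 288, 346 and 378 CPM in non-tuft-like and at 9.13, 18.7 and 95.7 CPM in tuft-like mTEC (log2 fold change -3.03, SE 0.73, edgeR FDR 0.0713). Every tuft-like library was below every non-tuft-like library, and the tuft-like mean of 41.2 CPM was set mostly by library 3. Cldn1 was called in 8 of 14 alternatives, among them DESeq2 (adjusted p 0.0172), limma voom (0.00131) and edgeR without tuft-like library 3 (log2 fold change -4.64, FDR 0.00150). Among tuft-like libraries, the sum of the keratinocyte markers was also highest in library 3, though not every single marker was. This was not particular to keratinocyte markers. The tuft cell markers summed to 12672, 17998 and 21339 CPM in tuft-like libraries 1 to 3, whereas other lists, such as the ionocyte markers, did not peak in library 3. The part of keratinocyte RNA in the Cldn1 values was not tested.

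Cldn4, a sealing claudin of many simple epithelia, stood at 145, 131 and 148 CPM in non-tuft-like and at 33.4, 46.2 and 130 CPM in tuft-like mTEC (log2 fold change -1.01, SE 0.46, edgeR FDR 0.553). Tuft-like library 3 came within 1 CPM of the lowest non-tuft-like library, and without it the log2 fold change was -1.87 (edgeR FDR 0.00927). Cldn23 stood at 91.8, 97.5 and 90.5 CPM in non-tuft-like and at 26.7, 36.5 and 62.6 CPM in tuft-like mTEC (log2 fold change -1.15, SE 0.34, edgeR FDR 0.166). It did not overlap and was called in 4 of 14 alternatives, with an edgeR FDR of 0.0198 without tuft-like library 3. Cldn12 stood at 31.8, 22.0 and 22.3 CPM in non-tuft-like and at 17.2, 19.99 and 0.387 CPM in tuft-like mTEC (log2 fold change -1.02, SE 0.95, edgeR FDR 1), with library 3, at 14 reads, far below the others.

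Higher values in tuft-like mTEC were seen for Cldn7 and Cldn9, without a call. Cldn7, a claudin that also binds EpCAM, stood at 276, 212 and 159 CPM in non-tuft-like and at 270, 337 and 577 CPM in tuft-like mTEC (log2 fold change 0.87, SE 0.36, edgeR FDR 0.468). The ranges overlapped, and the filter at a mean of 10 CPM or more was the only alternative with a call (FDR 0.0355). Without tuft-like library 3 the log2 fold change of Cldn7 was 0.45. Cldn9, best known from the inner ear, stood at 15.2, 37.2 and 27.2 CPM in non-tuft-like and at 44.7, 47.8 and 61.6 CPM in tuft-like mTEC (log2 fold change 0.95, SE 0.38, edgeR FDR 0.423), without overlap, and without tuft-like library 3 its log2 fold change was 0.76. Cldn3, a sealing claudin, stood at 160, 154 and 144 CPM in non-tuft-like and at 132, 153 and 255 CPM in tuft-like mTEC (log2 fold change 0.24, SE 0.31, edgeR FDR 1). Tuft-like library 1 was below and library 3 above all non-tuft-like libraries, and without library 3 the estimate turned to -0.14. With 3 libraries against 3, an exact two-sided permutation test of a single gene cannot go below p = 0.10, the value of each gene whose populations did not overlap.

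Within the claudin family the summed level per kb was 503, 487 and 454 in non-tuft-like and 343, 400 and 693 in tuft-like libraries 1 to 3. Tuft-like libraries 1 and 2 were below and library 3 above all non-tuft-like libraries, so the near-equal means of 481 ± 25.0 and 479 ± 187 rest on library 3. On CPM the means were 1039 and 841. Cldn7 made up 28.2%, 22.4% and 17.99% of it in non-tuft-like and 40.4%, 43.3% and 42.8% in tuft-like libraries 1 to 3. Cldn1 made up 11.8%, 14.7% and 17.2% in non-tuft-like and 0.549%, 0.965% and 2.85% in tuft-like libraries. The share of Cldn3 was much the same in all libraries of a population, at 25.2 ± 0.0843% and 30.1 ± 0.725%. Cldn4 made up 16.2 ± 1.62% and 7.36 ± 2.65%, and Cldn23 10.5 ± 0.538% and 4.68 ± 0.413%. The level of Cldn7 per kb was 2.38, 1.52 and 1.04 times that of Cldn1 in non-tuft-like and 73.6, 44.9 and 15 times in tuft-like libraries. For Cldn3 over Cldn4 the ratios were 1.60, 1.70 and 1.399 against 5.72, 4.76 and 2.82. The ratios of neither pair overlapped between the populations, and none of these 4 genes was called by edgeR. The ratios are no separate support, because the denominators Cldn1 and Cldn4 did not overlap by themselves, whereas Cldn7 and Cldn3 did.

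**Figure D3:**
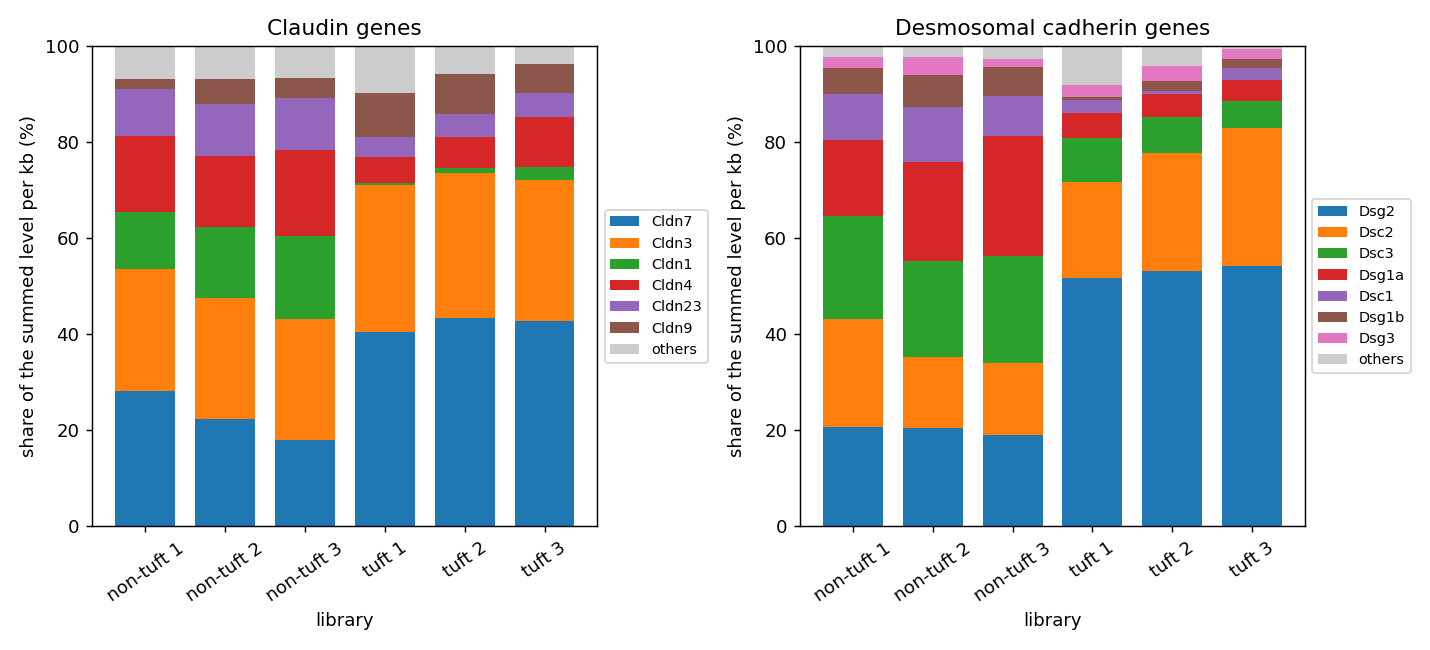
Share (%) of each gene in the summed level per kb of the 23 claudins (left) and the 9 desmosomal cadherins (right), as stacked bars for each of the 6 libraries. Dsg2 takes 19.0% to 20.6% of the cadherin sum in non-tuft-like and 51.7% to 54.2% in tuft-like libraries, and Cldn7 takes 17.99% to 28.2% and 40.4% to 43.3% of the claudin sum. A share also depends on the other genes in its sum.

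Upstream sequences are shown for these 4 claudins because their ratios differed between the populations. Each is the 250 bases before the RefSeq start (GRCm38.p6), 5′ to 3′ on the gene's own strand, with matches to the searched motifs in capitals. Cldn3 and Cldn4 lie near each other on chromosome 5 and are read in opposite directions.
Cldn1, chr16:26371840-26372089, minus strand: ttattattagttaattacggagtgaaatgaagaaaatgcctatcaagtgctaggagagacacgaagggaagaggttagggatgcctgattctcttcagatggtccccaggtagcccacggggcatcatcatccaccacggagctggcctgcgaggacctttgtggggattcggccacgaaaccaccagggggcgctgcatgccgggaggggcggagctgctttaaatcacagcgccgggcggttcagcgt
Cldn7, chr11:69964529-69964778, plus strand: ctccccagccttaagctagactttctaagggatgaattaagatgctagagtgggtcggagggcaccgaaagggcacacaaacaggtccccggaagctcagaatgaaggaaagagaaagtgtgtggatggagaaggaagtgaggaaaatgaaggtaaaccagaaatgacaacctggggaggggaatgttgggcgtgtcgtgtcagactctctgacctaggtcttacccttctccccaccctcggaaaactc
Cldn4, chr5:134946935-134947184, minus strand: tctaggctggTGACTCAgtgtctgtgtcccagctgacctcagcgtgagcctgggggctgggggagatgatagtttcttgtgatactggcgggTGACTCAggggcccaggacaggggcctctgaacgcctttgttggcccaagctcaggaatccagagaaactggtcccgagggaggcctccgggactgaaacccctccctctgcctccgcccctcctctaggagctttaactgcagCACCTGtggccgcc
Cldn3, chr5:134985964-134986213, plus strand: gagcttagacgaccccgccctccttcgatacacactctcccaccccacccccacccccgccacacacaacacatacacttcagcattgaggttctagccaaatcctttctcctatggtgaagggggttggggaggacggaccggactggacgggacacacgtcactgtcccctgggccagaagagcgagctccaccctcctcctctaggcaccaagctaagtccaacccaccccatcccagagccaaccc

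The motifs searched, on both strands, were AACNGGTT of grainyhead-like factors, TGANTCA of AP-1, CACCTG bound by Snail and Zeb repressors, and the octamer ATGCAAAT of POU factors. None of the matches in the printed windows overlapped another. Only the Cldn4 window of those printed held a match, with 2 AP-1 matches (TGACTCA) and 1 CACCTG match. Over 32851 promoters of this length the shares with a match were 1.79% for AACNGGTT, 6.75% for TGANTCA, 17.2% for CACCTG and 1.6% for ATGCAAAT. Among the 38 windows of 26 members that the RefSeq table holds, AACNGGTT occurred in 1 (Cldn5), TGANTCA in 2 (Cldn15 and Cldn4), CACCTG in 8 (of Cldn14, Cldn4, Cldn6, Cldn7, Ocln, Pkp4 and Tjp3) and ATGCAAAT in 0. A match is a description of letters and not a site shown to be bound.

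The other strand proteins and the scaffolds differed less. Ocln, which encodes occludin, stood at 118, 107 and 112 CPM in non-tuft-like and at 50.5, 82.0 and 98.4 CPM in tuft-like mTEC (log2 fold change -0.55, SE 0.30, edgeR FDR 0.785), without overlap. Marveld2, which encodes tricellulin of the corners where cells meet, stood at 55.9, 38.6 and 31.6 CPM in non-tuft-like and at 45.5, 57.7 and 89.0 CPM in tuft-like mTEC (log2 fold change 0.61, SE 0.35, edgeR FDR 0.832). Marveld3 stood at 28.6 to 48.7 CPM and at 36.9 to 79.6 CPM (log2 fold change 0.48, SE 0.39, edgeR FDR 1). Both of these overlapped between populations, and without tuft-like library 3 their log2 fold changes were 0.26 for Marveld2 and -0.01 for Marveld3, so the direction for Marveld3 rested on that library. Tjp1, the scaffold ZO-1, stood at 57.8, 106 and 80.9 CPM in non-tuft-like and at 54.9, 56.5 and 47.5 CPM in tuft-like mTEC (log2 fold change -0.62, SE 0.30, edgeR FDR 0.632), with all tuft-like libraries just below all others. Tjp3, a further ZO scaffold, stood at 148 to 223 CPM in non-tuft-like and at 129 to 216 CPM in tuft-like mTEC, with overlap.

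**Figure D4:**
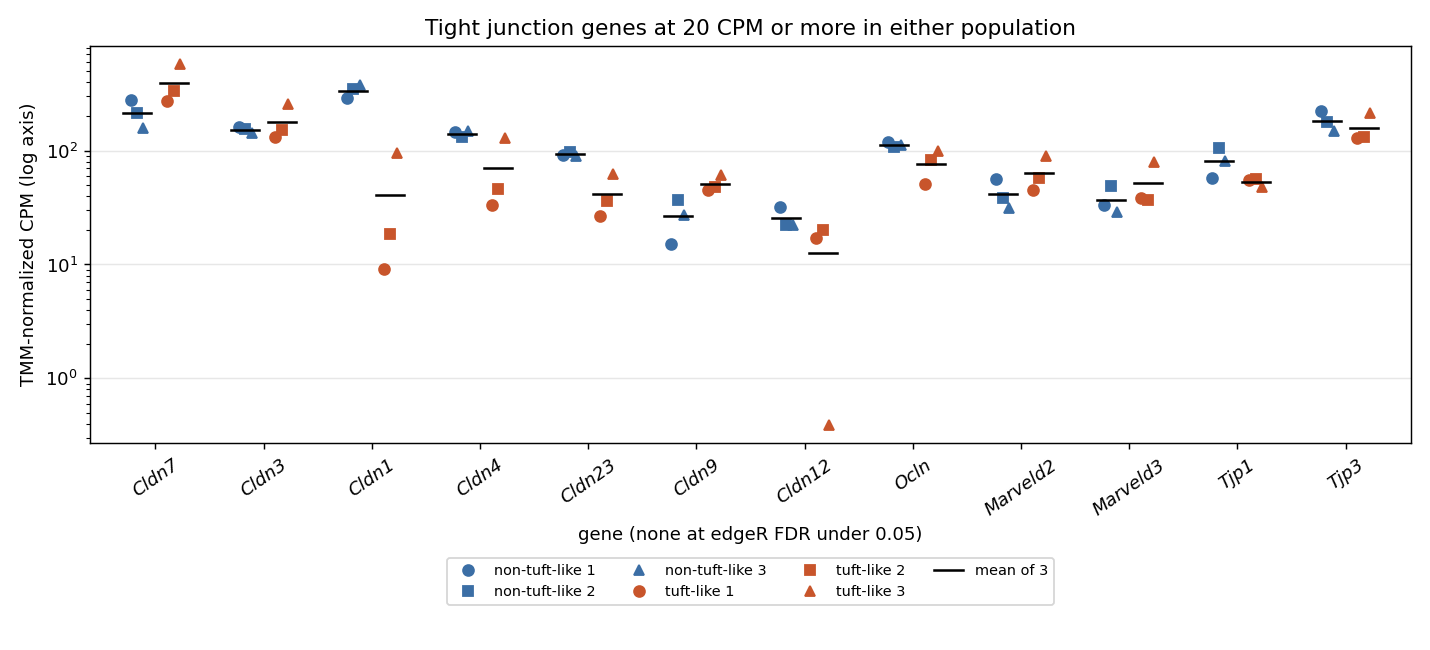
TMM-normalized CPM on a log axis of 12 tight junction members at a mean of 20 CPM or more in either population, in the 3 non-tuft-like (blue) and 3 tuft-like (orange) libraries; black lines are means of 3. Cldn1 shows the widest gap between populations, from 288 to 378 CPM down to 9.13 to 95.7 CPM, and tuft-like library 3 is the highest tuft-like library for most genes but the lowest for Cldn12 and Tjp1.

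The other 18 members, 16 claudins with Dsg1c and Dsg4, had a mean under 20 CPM in both populations, the highest being 16.99 CPM for Cldn6. Of these, 14 were tested, with 0 called by edgeR, 0 at an unadjusted p under 0.05 and 0 called under any alternative run. Cldn11, Cldn17, Cldn20 and Cldn22 were not tested, with at most 14 reads in a library, which is too little for a difference to be detectable. All 50-base stretches of Cldn22 and 68.9% of those of Cldn24 also occur in Wwc2 or in each other, so low counts of this pair need not mean low expression. Olfactory receptor genes served as a reference for low-level reads. The 99th percentile of 1106 such genes was 1.35 to 2.79 CPM per kb over the libraries. All 6 libraries were above it for 22 members. For 6 more (Cldn1, Cldn12, Cldn13, Dsc1, Dsg1b and Dsg4) all 3 non-tuft-like libraries were above it but not all 3 tuft-like libraries, and for Cldn10 the reverse held. The remaining 15 members were not above it in all libraries of either population.

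Cldn8 and Cldn10 were low but did not overlap between the populations. Cldn8 stood at 2.89 to 4.16 CPM in non-tuft-like and at 5.85 to 8.12 CPM in tuft-like mTEC, and Cldn10 at 1.001 to 5.88 CPM and at 6.58 to 8.56 CPM. Neither had an edgeR FDR below 0.968. Cldn5, the claudin of endothelium, was counted at 66, 0 and 129 reads in non-tuft-like and at 167, 59 and 0 reads in tuft-like libraries. Endothelial markers were present too, with 8 genes summing to 170 to 242 CPM and to 265 to 529 CPM, and with Tek alone called (higher). Tek and Vwf made up most of the sum in each library. The other 6 markers summed to 19.6, 30.3 and 36.2 CPM in non-tuft-like and to 220, 39.3 and 6.08 CPM in tuft-like libraries 1 to 3, so they were highest in tuft-like library 1 and nearly absent from library 3. Emcn was at 0 in tuft-like library 3, the library that also held no read of Cldn5. Cldn5 was at 0 in non-tuft-like library 2 as well, where Emcn had 228 reads. The part of endothelial RNA in the Cldn5 counts was not tested. In tuft-like library 3, 10 members were at 0, against 2 to 5 in the others, all of them among the 18 low genes.

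Further junction genes were taken from 4 lists with 71 tested members, of which 5 were lower and 2 higher in tuft-like mTEC. The share called was 9.86%, against 2.11% of all tested genes. In the fit of genes at a mean of at least 10 CPM, 20 of 60 were called, against 1547 of 11632 genes. The median log2 fold change of the 71 genes was -0.52, beside 0.02 over all tested genes. Among 7 desmosome partners, 1 was lower. Perp, a desmosomal membrane protein of stratified epithelia, stood at 749, 1022 and 1079 CPM in non-tuft-like and at 78.4, 156 and 309 CPM in tuft-like mTEC (log2 fold change -2.39, SE 0.48, edgeR FDR 0.0308). Among 11 adherens junction genes, 1 was lower. Cdh3, which encodes P-cadherin, stood at 34.6, 37.5 and 50.2 CPM in non-tuft-like and at 9.42, 7.22 and 4.83 CPM in tuft-like mTEC (log2 fold change -2.51, SE 0.43, edgeR FDR 0.0125). None of these libraries overlapped.

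Of 33 further tight junction genes, 2 were higher and 1 was lower. Ildr1, which encodes an angulin of tricellular junctions, stood at 87.9, 73.4 and 79.4 CPM in non-tuft-like and at 200, 259 and 162 CPM in tuft-like mTEC (log2 fold change 1.37, SE 0.28, edgeR FDR 0.0352). Cldnd1, a claudin-domain protein outside the numbered family, stood at 111, 94.1 and 95.0 CPM in non-tuft-like and at 212, 238 and 302 CPM in tuft-like mTEC (log2 fold change 1.33, SE 0.27, edgeR FDR 0.0341). Amotl1, an angiomotin-like junction protein, stood at 83.5, 98.4 and 109 CPM in non-tuft-like and at 29.8, 22.9 and 25.8 CPM in tuft-like mTEC (log2 fold change -1.89, SE 0.28, edgeR FDR 0.00566). Of 20 regulators of junction genes, 2 were lower, both transcription factors of epithelial differentiation. Grhl1, a grainyhead-like factor known to act on Dsg1, stood at 159, 261 and 232 CPM in non-tuft-like and at 32.6, 44.5 and 67.1 CPM in tuft-like mTEC (log2 fold change -2.18, SE 0.35, edgeR FDR 0.00922). Ovol1 stood at 63.1, 70.7 and 44.5 CPM in non-tuft-like and at 12.6, 21.5 and 22.3 CPM in tuft-like mTEC (log2 fold change -1.66, SE 0.36, edgeR FDR 0.0445). Amotl1 was called in all 14 alternatives, whereas each of the other 6 called genes lost its call on leaving out at least 1 library, tuft-like library 2 in every case.

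Among the junction genes that were not called, those with the highest levels per kb in their lists are given by their means. Epcam, the adhesion molecule used to gate epithelium, stood at 105, 351 and 424 per kb in non-tuft-like (mean 293) and at 113, 357 and 474 per kb in tuft-like libraries 1 to 3 (mean 315). Library 1 of both populations was far below the others. Cdh1, which encodes E-cadherin, had means of 249 and 183 per kb. Ctnnb1, the beta-catenin gene, stood at 51.7 and 36.1 per kb, and Pof1b at 34.2 and 21.6. Cdsn, a desmosome protein of cornified cells, stood at 74.7 and 18.4 per kb. The transcription factor genes Elf3 and Klf4 had higher tuft-like means, at 120 and 271 and at 30.6 and 62.2 per kb, with both highest in tuft-like library 3. No difference of these 7 genes passed the main test. Cdsn was called in 8, Elf3 in 5 and Klf4 in 2 of 14 alternatives, and their libraries did not overlap between the populations. The others of these genes were called in no alternative.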

How the data were processed

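The members, gene lists and tests were chosen with earlier results of these data known. The authors prepared the RNAseq libraries from sorted mTEC with the SMARTer kit for ultra-low input. Per the labels and the methods, the authors removed adapters by Trimmomatic 0.36, used STAR 2.7.3a for alignment to mm10 and counted with HTSeq in its intersection-nonempty mode. The deposited values are raw counts of reads per gene, without normalization. The annotation release, read length and strand setting are not given in the sources used here, so overlapping and antisense genes cannot be separated. Rows were matched to GENCODE M21 of mm10, which left 147 of 52636 gene rows, with 0.0164% of counts, without a name. Of 92 ERCC rows, none entered library sizes or tests.

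Groups followed the sample labels. With R 4.3.3 and edgeR 4.0.16, filterByExpr removed low genes (count minimum 10, total minimum 15), TMM factors scaled the libraries, and populations were compared by the quasi-likelihood F-test with Benjamini-Hochberg adjustment over 32496 genes, without covariates. The SE was approximated from F, as the size of the log2 fold change over the root of F. The scripts were tested on simulated data. Alternatives were RLE factors, library size only, DESeq2 1.42.0, the likelihood ratio test, limma voom (limma 3.58.1), no filter, a filter at a mean of 10 CPM, the replicate number as a block, and each of 6 libraries left out. Where a library is left out, the pair that remains is assumed to vary like the other population. Levels per kb used the union of GENCODE exons. Values of every library, or for some genes only their range, are given for members called or at a mean of 20 CPM or more in either population. Other members are summarised. A few genes that enter the counts are not reported by name here. Named further junction genes were those called and, for each list, up to 2 that were not called with the highest level per kb. Kit, Ceacam1 and Aire served as a check of the labels. The names of the called keratinocyte and endothelial markers, and of Emcn, were picked with their values in view. Promoter windows are from RefSeq (GRCm38.p6). They cover 26 members, and Pkp3 has none in the table.

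A count of 0 allows up to 3 counts, which is 0.0639 to 0.124 CPM over the libraries. Such a limit covers counting error only, because the reads carry no molecular identifiers and need not stem from separate molecules.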

Additional observations from a re-analysis of the deposited data

How the results depend on the processing

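The 5 member calls became 9 with library size only, 9 with DESeq2 and 10 with a mean of at least 10 CPM, and 3 to 9 when a library was left out. They were 3 without non-tuft-like library 2, non-tuft-like library 3 or tuft-like library 2, and 9 without tuft-like library 3. Over all genes, the 687 calls became 1045 with library size only, 1904 with DESeq2, 1236 with the likelihood ratio test, 1127 without a filter and 1547 with a mean of at least 10 CPM, and 376 to 922 when a library was left out. The split of 378 higher and 309 lower became 519 and 526 with library size only and 310 and 612 without tuft-like library 3. The 7 calls among other junction genes became 15 with library size only, 23 with DESeq2, 18 with the likelihood ratio test, 16 with limma voom, 18 without a filter and 20 with a mean of at least 10 CPM, and 1 to 13 when a library was left out. On CPM in place of CPM per kb, the tuft-like share of Cldn7 was 46.9% (42.2% per kb), and that of Dsg2 was 28.2% in non-tuft-like (20.1% per kb) and 64.1% in tuft-like mTEC (53.0% per kb). The cause of these differences was not tested. Estimates of the 5 called members were below 0 in all 14 alternatives. With the replicate number as a block, 737 genes, 6 members (Cldn1 in addition) and 10 other junction genes were called. Deviations of same-numbered libraries from their population means had correlations of -0.156, -0.061 and -0.326. Over the tested genes these show no sign of pairs, but they cannot exclude that same-numbered libraries came from the same mice.

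Depth limits members under 20 CPM, where a library held between 0 and 1150 reads. Libraries of a population varied widely, with a biological coefficient of variation of 1.1 common to all genes. Leaving out tuft-like library 3 moved the median log2 fold change of all genes by 0.316 and any other alternative by at most 0.101 in size.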

Other observations

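Of the 13 marker lists of other cell types that were not set beside a member, 7 held a call. In tuft-like mTEC, 2 of 7 cTEC, 1 of 9 enterocyte and hepatocyte, 1 of 8 macrophage and dendritic cell and 1 of 6 neural, glial and parathyroid markers were lower. The called marker of the neural, glial and parathyroid list was uneven, at 1.42, 1000 and 229 CPM in non-tuft-like libraries 1 to 3. It stood at 0.292 to 0.992 CPM in tuft-like libraries. The markers higher in tuft-like mTEC were 1 of 7 for microfold cells, 1 of 7 for ionocytes and 1 of 5 for B cells. No marker of neuroendocrine cells, ciliated cells, muscle, fibroblasts, thymocytes or erythroid cells was called by edgeR, where 2, 3, 0, 0, 1 and 4 of them had an unadjusted p under 0.05.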
